A study of Homo sapiens with 24 samples.

Results

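The mRNAs of the large subunit of the mitochondrial ribosome were examined one by one for their decay in cells with and without a targeted CNOT3 gene. They were taken as the genes whose deposited symbol is MRPL followed only by digits and whose T-to-C conversion was above 0 in all 4 libraries at 0 h of chase. Of 19798 genes in the table, 49 matched the symbol, all 49 met the 0 h condition, and none of them was at 0 in any of the 24 libraries. All 49 therefore passed the filter on low values (above 0 in at least 20 of the 24 libraries), as did 10731 genes in all. The rule used no difference between genotypes. Of the proteins of this subunit, 3 have symbols outside the pattern and are described apart.

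The cells were HEK293T, a human embryonic kidney line. They carried lentiCRISPR_v2, a lentivirus that delivers Cas9 together with a guide RNA, and both genotypes were selected in puromycin for 4 days. The guides were sgCNOT3-1 and sgCNOT3-2 against CNOT3, or the non-targeting sgNT1 and sgNT2, and the labels do not say which library received which guide. Both genotypes took up 4-thiouridine (75 µM) over 24 h, with new medium every 3 h, before a chase in 10 mM UTP. Harvests were after 0, 1, 2, 4, 8 and 12 h of chase, with 2 libraries for each genotype and time, 12 libraries per genotype. In SLAM-seq, alkylation by iodoacetamide turns labelled U into an apparent C, and the conversion of a gene tracks the part of its RNA that was labelled before the chase. Whether the table counts converted reads or single T positions is not given. Each value is a conversion, not an RNA level. The levels of CNOT3 and of cell type markers could therefore not be checked here.

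CNOT3 is a subunit of CCR4-NOT, the main cytoplasmic deadenylase, which shortens poly(A) tails and so starts the decay of many mRNAs. The mitochondrial ribosome translates the few proteins encoded by mitochondrial DNA, all of them subunits of the oxidative phosphorylation complexes. Its large subunit forms peptide bonds and holds the exit tunnel for the new chain. All of its proteins are encoded in the nucleus, translated in the cytosol and imported, so their mRNAs are open to cytoplasmic decay. One class of these proteins has counterparts in the bacterial large subunit and the other was added in the mitochondrial lineage.

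The study asked whether the arginine codons CGG, CGA and AGG mark mRNAs for decay through CNOT3. Stretches of 40 codons from the coding sequences with the highest and the lowest share of these codons among the 49 are shown for that reason. In each, the stretch with the most CGG, CGA and AGG codons inside 1 coding exon was taken, so its count is a maximum. The stretches come from the GENCODE 44 transcript on GRCh38 and are read 5′ to 3′ on the coding strand. Capitals mark in-frame CGG, CGA and AGG codons. The MRPL55 stretch lies at chr1:228106772-228106891 on the minus strand, the MRPL23 stretch at chr11:1950900-1951019 on the plus strand, the MRPL30 stretch at chr2:99194751-99194870 on the plus strand and the MRPL3 stretch at chr3:131501595-131501714 on the minus strand. All are exonic coding sequence.
MRPL55: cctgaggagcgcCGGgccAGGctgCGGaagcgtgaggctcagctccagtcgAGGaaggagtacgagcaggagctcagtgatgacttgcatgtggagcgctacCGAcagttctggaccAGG
MRPL23: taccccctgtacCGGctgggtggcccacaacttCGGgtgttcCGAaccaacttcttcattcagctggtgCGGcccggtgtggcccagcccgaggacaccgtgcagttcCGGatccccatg
MRPL30: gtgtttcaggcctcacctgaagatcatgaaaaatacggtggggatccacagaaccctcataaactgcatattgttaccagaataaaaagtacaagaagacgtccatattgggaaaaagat
MRPL3: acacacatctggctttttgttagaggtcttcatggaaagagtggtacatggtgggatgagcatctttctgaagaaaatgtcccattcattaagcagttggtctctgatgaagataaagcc
The MRPL55 stretch held 9 arginine codons, 6 of them of these 3 kinds, and the MRPL23 stretch held 5, all of these kinds. The MRPL30 stretch had 4 arginine codons, none of these 3, and neither had its whole coding sequence. The MRPL3 stretch had 1 arginine codon and none of these 3, while its whole coding sequence had 5 of them.

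Depth is unknown, because the table holds no read counts, and replicates are 2 libraries per group that the labels do not call separate cultures. What the p-values measure is therefore the variation among these libraries, and that variation may be only technical. For the slope tests, the residual also holds any departure of log2 conversion from a straight line over time. The median conversion over the genes tested was 35.9% and 32.0% after 0 h and 5.73% and 5.17% after 12 h in sgNT, against 35.9% and 32.7% and then 8.54% and 9.84% in sgCNOT3. CNOT3, the targeted gene, had a conversion of 31.5% to 34.7% in sgNT and 62.1% to 81.0% in sgCNOT3 after 0 h, and its slope difference was 0.078 ± 0.077 (adjusted p = 0.50). Replicates of sgCNOT3 stood apart at 2 h, with medians of 29.1% and 18.8% and a Spearman correlation over genes of 0.34, against 0.53 at 4 h and 0.64 to 0.76 in the other 10 groups. Without both sgCNOT3 libraries at 2 h, a check chosen after seeing the data, 26 of the 27 slower members named next were still called.

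For 27 of the 49 mRNAs conversion fell more slowly when CNOT3 was targeted, although the median slope difference of the 49 turned from 0.059 to -0.0066 per h when libraries were centred on the median gene. The median over the 49 mRNAs fell from 38.3% and 33.7% after 0 h to 8.49% and 9.93% after 12 h in sgNT, and from 31.2% and 31.9% to 16.1% and 16.2% in sgCNOT3. The decay slope, in log2 conversion per h, was tested for a difference between genotypes with limma over all genes, adjusted by Benjamini-Hochberg with a threshold of 0.05. An mRNA with a slope difference (sgCNOT3 minus sgNT) above 0 past the threshold is called slower, and one below 0 is called faster. Of the 49 mRNAs, 27 were slower (55.1%) and 1, MRPL33, was faster, against 21.7% and 0.345% of all genes tested. The slope difference was above 0 for 45 of 49 (91.8%), beside 81.7% of all genes tested, and 21 passed in neither direction.

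The median slope difference was 0.059 per h for the 49 mRNAs and 0.058 for all genes tested. The median SE was 0.022 for the mRNAs and 0.044 for all genes. A comparison among genes of like SE was added after seeing the data. The SE also grows where log2 conversion departs from a straight line, so it is not precision alone. Of the 1746 tested genes with an SE no larger than the members' median, 24.7% were slower with a median slope difference of 0.021, and of the 25 members with such an SE 12 were slower (48%). Measured against the median gene, fewer mRNAs stood apart. With each library centred at its median over genes, which took 0.066 per h off every slope difference, 7 mRNAs were slower, namely MRPL10, MRPL17, MRPL35, MRPL36, MRPL44, MRPL46 and MRPL58. In that fit MRPL33, MRPL48 and MRPL53 were faster, and the direction of 23 of the 49 slope differences turned. The same fit called 5.46% of all genes slower and 6.09% faster. Centring also alters the spread between replicates. In sgCNOT3 at 2 h the medians were 29.1% and 18.8% over genes but 28.3% and 28.5% over the 49 mRNAs, so centring moves these replicates apart for the mRNAs. How far the lower count came from the shift or from such spread was not tested.

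**Figure D1:**
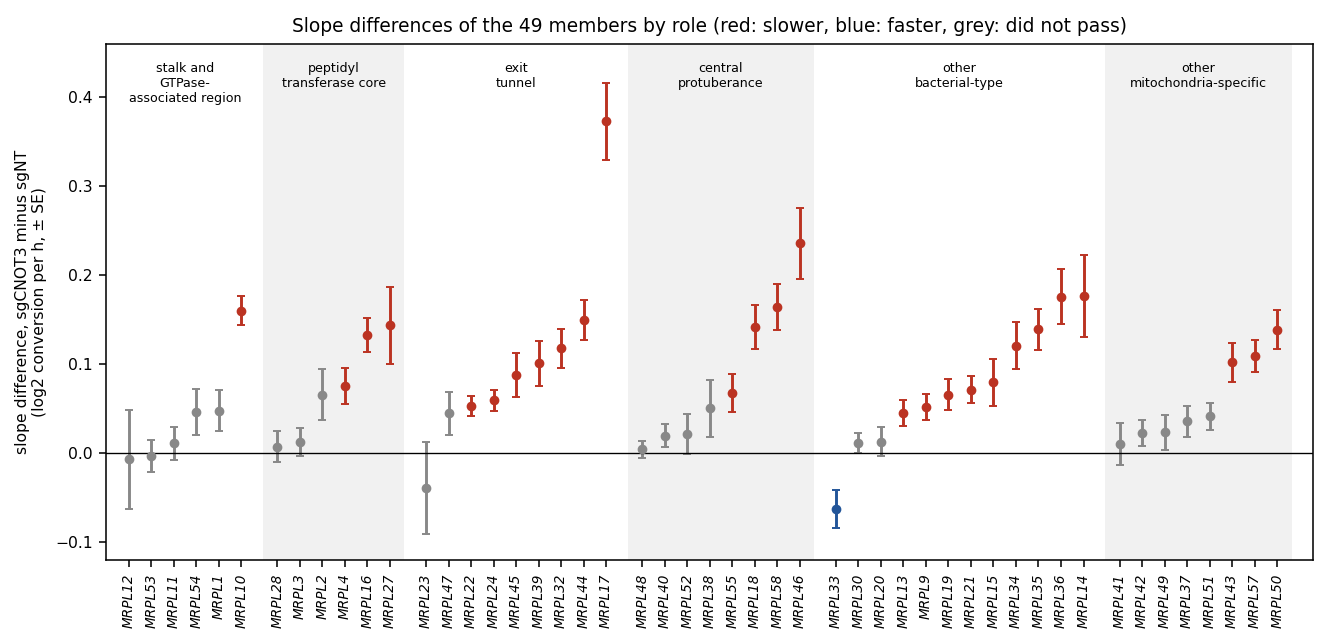
Slope difference between genotypes for each of the 49 mRNAs (points, log2 conversion per h, sgCNOT3 minus sgNT) with its standard error (bars), grouped by the place of the protein in the subunit. The 27 red points passed the test as slower, MRPL33 in blue passed as faster, and the 21 grey points did not pass.

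MRPL17, a bacterial-type protein at the rim of the exit tunnel, had the largest slope difference of the 49. Its conversion in sgNT was 44.3% and 40.6% after 0 h, 40.1% and 39.1% after 1 h, 37.7% and 37.4% after 2 h, 26.4% and 26.9% after 4 h, 10.98% and 11.3% after 8 h, and 1.08% and 0.957% after 12 h. In sgCNOT3 it was 25.1% and 21.3%, 24.8% and 25.5%, 25.1% and 26.6%, 29.9% and 31.7%, 32.7% and 33.5%, and 18.7% and 14.6% at the same times. Both sgCNOT3 libraries were thus below both sgNT libraries at 0, 1 and 2 h and above them at 4, 8 and 12 h. The slope difference was 0.37 ± 0.044 (SE, adjusted p = 7.2e-06). The single exponential gave a half-life of 4.73 h in sgNT. Its fit in sgCNOT3, where conversion did not fall until after 8 h, exceeded the limit on residual error and was left out.

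MRPL10, the protein that anchors the stalk which recruits translation factors, had the highest moderated t of the 49. In sgNT its conversion was 34.2% and 29.9% after 0 h, 32.1% and 35.2% after 1 h, 23.9% and 30.6% after 2 h, 24.8% and 21.9% after 4 h, 9.95% and 12.8% after 8 h, and 5.64% and 5.12% after 12 h. In sgCNOT3 the values were 40.2% and 42.7%, 36.96% and 41.7%, 33.6% and 32.7%, 34.8% and 38.6%, 30.5% and 33.2%, and 24.01% and 23.5%. The genotypes did not overlap at any of the 6 times, with sgCNOT3 above. The slope difference was 0.16 ± 0.017 (adjusted p = 3.3e-06). The half-life came to 6.16 h for sgNT (5.27 and 7.26 h when replicate 1 and replicate 2 were fitted alone) and 16.5 h in sgCNOT3 (16.9 and 16.1 h).

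Of the 6 stalk and GTPase-associated proteins, MRPL10 was the 1 that was slower. The other 5 were MRPL1 (the mobile stalk by the E site), MRPL11 (the stalk base), MRPL12 (the stalk dimers that contact elongation factors), MRPL53 and MRPL54 (mitochondrial additions beside the stalk). Their slope differences ran from -0.0075 to 0.047. MRPL12 was among the 2 non-passing mRNAs with the lowest slope difference. The sgNT libraries gave 5.46% and 5.03% after 0 h, 6.63% and 6.22% after 1 h, 5.68% and 4.79% after 2 h, 4.26% and 4.78% after 4 h, 2.65% and 3.53% after 8 h, and 1.64% and 3.64% after 12 h. The sgCNOT3 libraries gave 10.8% and 13.3%, 10.02% and 9.38%, 9.37% and 6.97%, 8.27% and 6.91%, 1.07% and 6.68%, and 4.19% and 8.14%. The sgCNOT3 libraries were above the sgNT libraries at every time but 8 h, where 1 of them was the lowest of the 4. The MRPL12 slope difference was -0.0075 ± 0.056 and did not pass. It turned sign without 1 of 3 libraries, sgNT replicate 2 at 12 h, sgCNOT3 replicate 2 at 0 h or sgCNOT3 replicate 1 at 8 h, and reached 0.031 without the last.

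Of the 6 proteins placed in the group around the peptidyl transferase core, 3 were slower: MRPL4, MRPL16 and MRPL27. MRPL16 has a bacterial counterpart that joins the subunit late in assembly. Its conversion in sgNT was 50.9% and 54.3% after 0 h, 48.3% and 46.7% after 1 h, 39.2% and 46.1% after 2 h, 33.5% and 38.9% after 4 h, 20.8% and 17.1% after 8 h, and 7.16% and 5.90% after 12 h. With CNOT3 targeted it read 44.5% and 43.99%, 39.5% and 44.4%, 38.1% and 44.2%, 37.4% and 39.5%, 27.9% and 29.4%, and 17.8% and 16.9%. Its genotypes crossed, with sgCNOT3 below sgNT in all libraries at 0 and 1 h and above in all at 8 and 12 h. The MRPL16 slope difference was 0.13 ± 0.019 (adjusted p = 5.6e-05), and the half-life came to 5.50 h for sgNT and 11.4 h in sgCNOT3. MRPL27, which reaches with its tail toward the peptidyl transferase centre in bacteria, had a slope difference of 0.14 ± 0.043. This call was lost without sgNT replicate 1 at 12 h (0.12, adjusted p = 0.073) and without sgNT replicate 2 at 12 h (0.10, adjusted p = 0.11).

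MRPL28 and MRPL3 of the same group did not pass, with slope differences of 0.0069 ± 0.018 and 0.012 ± 0.016. MRPL2, which binds the ribosomal RNA near the centre, had a slope difference of 0.065 ± 0.028 and missed the threshold (adjusted p = 0.10). MRPL28 had hardly any decay in either genotype. In sgNT its conversion was 17.1% and 14.5% after 0 h, 14.6% and 15.9% after 1 h, 13.9% and 19.8% after 2 h, 14.9% and 14.2% after 4 h, 14.9% and 19.3% after 8 h, and 15.2% and 14.4% after 12 h. The values in sgCNOT3 were 20.02% and 20.7%, 21.5% and 19.3%, 24.7% and 21.1%, 19.4% and 24.6%, 19.6% and 22.02%, and 21.001% and 22.98%. The sgCNOT3 libraries were above both sgNT libraries at every time, by 0.36 log2 at 0 h and 0.56 at 12 h. Both half-lives were at the limit of 24 h.

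Around the exit tunnel, where the new chain leaves the ribosome, 7 of 9 mRNAs were slower: MRPL17, MRPL22, MRPL24, MRPL32, MRPL39, MRPL44 and MRPL45. This was the highest share among the 6 places, 77.8%, but close to the 75% of the other bacterial-type proteins described below. The stalk group had 16.7%, the peptidyl transferase and central protuberance groups 50% and the other mitochondria-specific proteins 37.5%. Of all genes tested, 21.7% were slower. The shares were not tested against each other. MRPL44, which carries a fold of the RNase III family, had the shortest sgNT half-life of the 46 mRNAs with kept fits. The sgNT libraries gave 51.6% and 45.05% after 0 h, 44.2% and 47.3% after 1 h, 30.2% and 28.1% after 2 h, 27.8% and 26.7% after 4 h, 9.94% and 12.1% after 8 h, and 4.45% and 3.08% after 12 h. In sgCNOT3 it was 36.6% and 50.9%, 35.8% and 42.9%, 25.99% and 33.98%, 25.7% and 33.6%, 19.5% and 21.7%, and 10.2% and 12.8%. The genotypes overlapped at 0, 2 and 4 h, both sgCNOT3 libraries were lower at 1 h, and both were higher at 8 and 12 h. The MRPL44 slope difference was 0.15 ± 0.023 (adjusted p = 8.7e-05). Its half-life came to 3.92 h for sgNT (3.57 and 4.33 h by replicate number) and 6.45 h in sgCNOT3 (7.32 and 5.88 h).

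MRPL32, a protein matured by a protease of the inner membrane, had a slope difference of 0.12 ± 0.022. MRPL45 tethers the ribosome to the inner membrane, and its call was lost without sgNT replicate 2 at 12 h (0.071, adjusted p = 0.070). MRPL47 and MRPL23 were the tunnel members that did not pass. MRPL23, which lines the tunnel exit, had the lowest conversion of the 49 mRNAs at 0 h. In sgNT its values were 3.04% and 1.79% after 0 h, 4.31% and 3.89% after 1 h, 3.82% and 3.39% after 2 h, 4.52% and 4.96% after 4 h, 2.76% and 4.08% after 8 h, and 7.12% and 3.07% after 12 h. In sgCNOT3 they were 10.4% and 11.4%, 10.1% and 7.44%, 6.07% and 6.92%, 6.43% and 8.73%, 2.95% and 7.01%, and 9.70% and 14.2%. MRPL23 was the 1 mRNA of the 49 whose sgNT slope was above 0, and sgCNOT3 was higher at all times with an overlap at 8 h. Its slope difference was -0.040 ± 0.051, and its half-life fits were left out.

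In the central protuberance, which in mitochondria is built around a tRNA in place of 5S rRNA, 4 of 8 mRNAs were slower: MRPL18, MRPL46, MRPL55 and MRPL58. MRPL58, also known as ICT1, is a peptidyl-tRNA hydrolase built into the subunit. Its conversion in sgNT was 44.5% and 47.01% after 0 h, 46.7% and 39.9% after 1 h, 46.6% and 50.6% after 2 h, 38.2% and 37.2% after 4 h, 17.1% and 20.97% after 8 h, and 5.05% and 8.02% after 12 h. The sgCNOT3 libraries gave 43.5% and 40.1%, 47.9% and 49.96%, 44.9% and 43.3%, 44.99% and 46.1%, 36.02% and 37.2%, and 23.1% and 26.3%. Conversion held near its start for 2 h in sgNT and for 4 h in sgCNOT3, and both sgCNOT3 libraries were above both sgNT libraries from 4 h on. The slope difference of MRPL58 was 0.16 ± 0.026 (adjusted p = 0.00011), with a half-life of 7.19 h for sgNT that reached the limit of 24 h for sgCNOT3.

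MRPL46, a mitochondrial addition with a hydrolase-like fold, had the second largest slope difference, 0.24 ± 0.040 (adjusted p = 0.00021). In sgNT its conversion was 32.04% and 31.8% after 0 h, 35.9% and 32.6% after 1 h, 32.5% and 28.9% after 2 h, 23.2% and 22.3% after 4 h, 6.58% and 9.51% after 8 h, and 0.968% and 1.08% after 12 h. With CNOT3 targeted it read 42.1% and 37.7%, 40.2% and 39.3%, 27.05% and 38.9%, 36.1% and 32.5%, 27.2% and 26.4%, and 8.48% and 11.9%. The sgCNOT3 libraries were above sgNT at all times but 2 h, where they overlapped. The half-life came to 5.34 h for sgNT and 9.59 h in sgCNOT3. In GENCODE 44 its exons overlap those of another protein-coding gene on the same strand, as do those of MRPL2, MRPL12, MRPL30, MRPL38 and MRPL53, so how reads of these 6 were assigned is uncertain.

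MRPL40 of the central protuberance was almost flat in both genotypes. The sgNT libraries gave 25.6% and 28.9% after 0 h, 27.5% and 27.7% after 1 h, 33.2% and 25.7% after 2 h, 29.3% and 28.97% after 4 h, 26.6% and 29.9% after 8 h, and 23.4% and 22.6% after 12 h. The values in sgCNOT3 were 32.01% and 28.1%, 34.2% and 33.4%, 36.04% and 35.9%, 33.9% and 35.8%, 36.1% and 36.3%, and 31.04% and 31.8%. The genotypes overlapped at 0 h and were apart from 1 h on, with sgCNOT3 above. The MRPL40 slope difference was 0.019 ± 0.013 and did not pass. MRPL28 and MRPL40 were chosen, after their values had been seen, from the 9 mRNAs tied at the limit of 24 h in sgNT. MRPL38, MRPL48 and MRPL52 did not pass either, and MRPL48 had the smallest error of the 49, with a slope difference of 0.0039 ± 0.0096.

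Among the other 12 bacterial-type proteins, 9 were slower and 1 was faster. The slower ones were MRPL9, MRPL13, MRPL14, MRPL15, MRPL19, MRPL21, MRPL34, MRPL35 and MRPL36, with slope differences from 0.044 to 0.18. MRPL34 had the second shortest kept half-life in sgNT, 4.49 h, against 9.63 h in sgCNOT3. Its conversion in sgNT was 55.9% and 58.3% after 0 h, 55.7% and 51.7% after 1 h, 43.1% and 40.9% after 2 h, 34.9% and 36.1% after 4 h, 13.5% and 14.4% after 8 h, and 5.08% and 4.22% after 12 h. In sgCNOT3 it was 40.6% and 40.6%, 39.4% and 37.9%, 40.2% and 40.5%, 40.9% and 39.3%, 23.8% and 23.3%, and 7.84% and 9.66%. In sgCNOT3 it stayed level for 4 h and started below sgNT. The MRPL34 slope difference was 0.12 ± 0.026 (adjusted p = 0.0019).

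MRPL36, a small zinc-binding protein, behaved in a like way. In sgNT its conversion was 39.4% and 35.9% after 0 h, 37.9% and 34.8% after 1 h, 36.5% and 29.8% after 2 h, 27.7% and 23.3% after 4 h, 10.4% and 10.5% after 8 h, and 4.38% and 2.90% after 12 h. The sgCNOT3 libraries gave 29.1% and 35.3%, 29.3% and 33.4%, 31.3% and 35.8%, 34.5% and 32.6%, 30.7% and 32.4%, and 11.4% and 11.4%. The sgCNOT3 values held between 29.1% and 35.8% up to 8 h and were above sgNT from 4 h on. The MRPL36 slope difference was 0.18 ± 0.031 (adjusted p = 0.00032). Its half-life came to 5.24 h for sgNT and 18.8 h in sgCNOT3, where the fits by replicate number gave 24 h and 15.0 h.

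MRPL33, a small bacterial-type protein, was the exception. The sgNT libraries gave 39.5% and 30.1% after 0 h, 33.8% and 32.7% after 1 h, 24.4% and 24.9% after 2 h, 26.4% and 25.5% after 4 h, 16.2% and 15.3% after 8 h, and 7.90% and 8.20% after 12 h. With CNOT3 targeted it read 31.1% and 37.9%, 34.5% and 37.2%, 25.8% and 27.4%, 21.1% and 23.3%, 12.3% and 13.9%, and 3.99% and 5.70%. The genotypes overlapped at 0 h, and sgCNOT3 was above at 1 and 2 h and below at 4, 8 and 12 h. The slope difference was -0.063 ± 0.021 (adjusted p = 0.038), and the half-life came to 6.61 h for sgNT and 5.60 h in sgCNOT3. The fits by replicate number differed in direction. With CNOT3 targeted, the half-life went from 5.42 up to 6.03 h for replicate 1 and from 8.43 down to 5.24 h for replicate 2. The call of MRPL33 as faster was lost in 11 of the 24 fits that left out 1 library. The slope difference moved most without sgCNOT3 replicate 1 at 12 h (-0.039, adjusted p = 0.17).

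The calls of 20 of the 27 slower mRNAs were kept in all 24 fits that left out 1 library, and those of 7 were not. Besides MRPL27 and MRPL45, MRPL9 (0.034, adjusted p = 0.093) and MRPL19 (0.047, adjusted p = 0.051) lost theirs without sgNT replicate 2 at 12 h. MRPL55 lost its call without sgNT replicate 1 (0.060, adjusted p = 0.077) or replicate 2 (0.059, adjusted p = 0.083) at 12 h. MRPL13 and MRPL15 each lost theirs in 6 of the fits. For MRPL13 these left out sgCNOT3 replicate 1 or 2 at 0 h, sgCNOT3 replicate 2 at 8 h, sgNT replicate 1 or 2 at 12 h or sgNT replicate 1 at 1 h, and the largest adjusted p was 0.11 (0.037, without sgNT replicate 1 at 12 h). For MRPL15 they left out either sgCNOT3 library at 0 or 8 h or either sgNT library at 12 h, and the largest adjusted p was 0.17 (0.052, without sgNT replicate 1 at 12 h).

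Of the 8 other mitochondria-specific proteins, 3 were slower: MRPL43, MRPL50 and MRPL57. MRPL50 had a conversion in sgNT of 50.4% and 53.3% after 0 h, 50% and 46.02% after 1 h, 38.1% and 39.6% after 2 h, 36.5% and 35.7% after 4 h, 12.96% and 16.3% after 8 h, and 8.49% and 7.13% after 12 h. The values in sgCNOT3 were 30.5% and 37.4%, 33.5% and 30.1%, 29.4% and 28.3%, 32.1% and 33.7%, 28.6% and 26.7%, and 12.5% and 14.6%. As for MRPL17, sgCNOT3 was below sgNT at 0, 1 and 2 h (here also at 4 h) and above at 8 and 12 h. The MRPL50 slope difference was 0.14 ± 0.022 (adjusted p = 0.00010), and the half-life came to 5.17 h for sgNT and 14.4 h in sgCNOT3. MRPL57 had 38.9% and 42.1% after 0 h and 12.5% and 10.8% after 12 h in sgNT, and 47.3% and 45.4%, then 38.4% and 36.5% in sgCNOT3. Its slope difference was 0.11 ± 0.018. MRPL37, MRPL41, MRPL42, MRPL49 and MRPL51 had slope differences from 0.010 to 0.041 and did not pass.

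By class, 19 of 30 proteins with a bacterial counterpart (63.3%) and 8 of 19 mitochondria-specific proteins (42.1%) were slower, beside 21.7% of all genes tested. Their median slope differences were 0.065 and 0.046. The difference between the classes was not tested. MRPL10, MRPL17, MRPL36, MRPL44 and MRPL46 have qRT-PCR primers in the study. All 5 were slower, with a median slope difference of 0.18. They had been picked for follow-up and are not independent evidence of a direction.

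**Figure D2:**
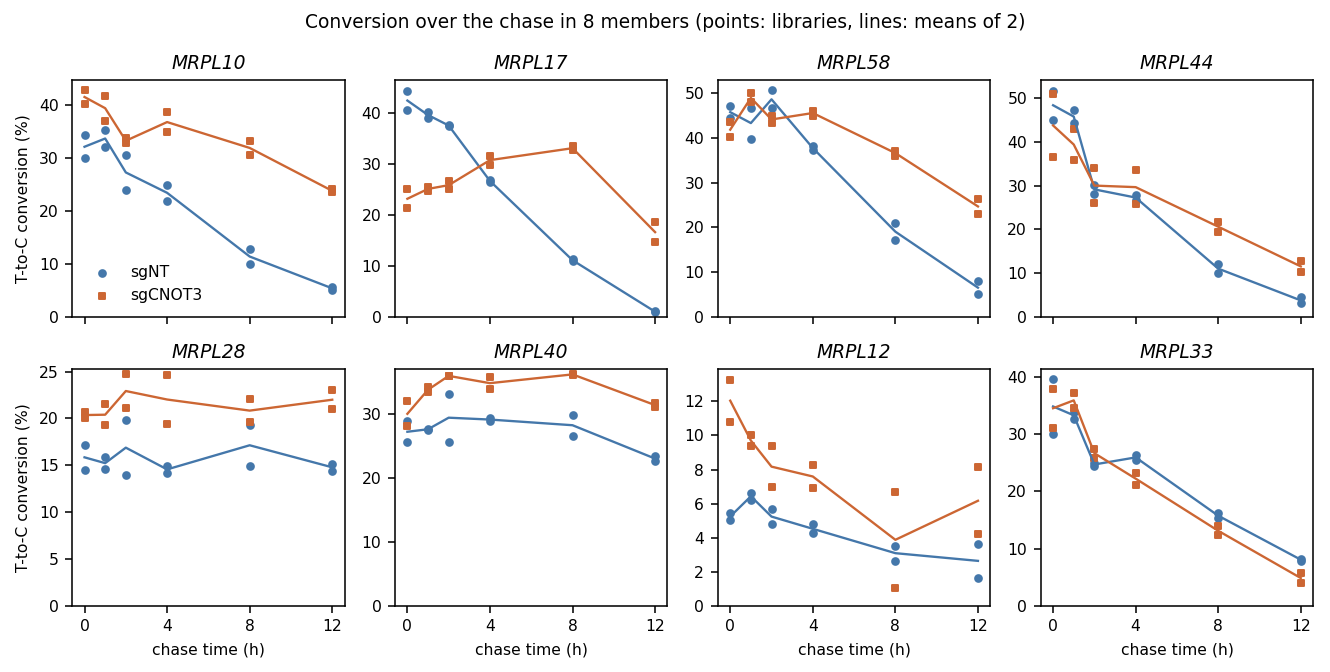
T-to-C conversion (%) against chase time (h) for 8 of the mRNAs, with 1 point per library and lines through the means of 2. MRPL10, MRPL17, MRPL58 and MRPL44 fell to at most 8.02% at 12 h in sgNT and stayed at 10.2% or more in sgCNOT3, MRPL28 and MRPL40 were nearly flat, MRPL12 was low with a wide spread, and MRPL33 fell further in sgCNOT3.

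The calls followed how fast an mRNA decayed in control cells. Of the 17 mRNAs with an sgNT slope steeper than -0.2 per h, 17 were slower. Of the 17 with slopes from -0.2 to -0.1, 8 were slower, and of the 15 with flatter slopes, 2 were (MRPL21 and MRPL24). For all genes tested the shares in these ranges were 29.7%, 18.5% and 4.40%. The median slope differences of the mRNAs were 0.14, 0.047 and 0.013, beside 0.11, 0.044 and 0.012 for all genes. The median SE in the 3 ranges was 0.025, 0.020 and 0.017 for the mRNAs and 0.060, 0.033 and 0.025 for all genes, so the shares called were not at like SE. These ranges were chosen after seeing the data. The sgNT slope also enters the slope difference, so errors in sgNT move both, and the relation is a description.

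Most calls between genotypes came late in the chase, and they were then almost all in the direction of higher conversion in sgCNOT3. At 0 h, 3 mRNAs were higher in sgCNOT3 and 7 were lower, against 0.811% and 4.09% of all genes tested. At 1 h the counts were 4 and 6 (0.923% and 2.45%), at 2 h 0 and 3 (1.55% and 2.48%) and at 4 h 4 and 4 (2.14% and 5.34%). At 8 h, 26 were higher and 0 lower (18.9% and 1.98%), and at 12 h, 36 were higher and 2 lower (31.8% and 2.73%). With libraries centred on the median gene, 8 were higher and 7 lower at 12 h, beside 10.1% and 14.6% of all genes. The median difference over the 49 mRNAs went from -0.13 log2 at 0 h to 0.50 at 8 h and 0.74 at 12 h, beside 0.049, 0.48 and 0.65 for all genes. For 39 mRNAs both sgCNOT3 libraries were above both sgNT libraries at 12 h, and for 3 both were below, beside 51.9% and 8.28% of all genes. At 0 h the groups were apart with sgCNOT3 below for 23 mRNAs (25.9% of all genes) and with sgCNOT3 above for 16 (29.1%).

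**Figure D3:**
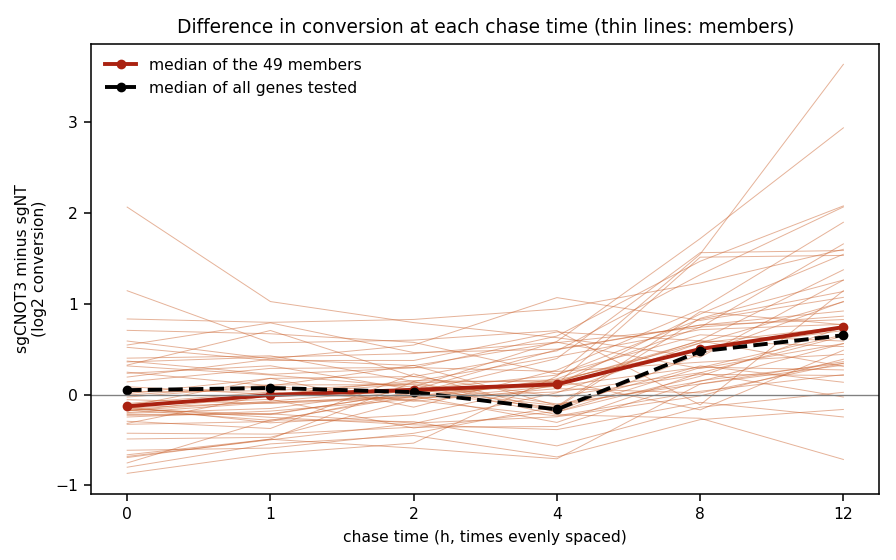
Difference in log2 conversion, sgCNOT3 minus sgNT, at each of the 6 chase times, with a thin line per mRNA, the median of the 49 in red and the median of all genes tested as a dashed black line. The red median went from -0.13 at 0 h to 0.74 at 12 h, and the black median from 0.049 to 0.65.

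The largest differences at 12 h belonged to MRPL17 (3.63 ± 0.13 log2, SE), MRPL46 (2.93 ± 0.20), MRPL10 (2.08 ± 0.14) and MRPL27 (2.06 ± 0.17). In sgNT at 12 h MRPL17 was at 1.08% and 0.957% and MRPL46 at 0.968% and 1.08%. The 500 genes with the shortest sgNT half-lives had medians of 1.05% in sgNT and 2.62% in sgCNOT3 at 12 h. The sizes for MRPL17 and MRPL46 therefore depend on this floor and on the pseudocount. Of the 36 mRNAs higher at 12 h, 25 were also slower. The other 11 were MRPL2, MRPL20, MRPL23, MRPL28, MRPL30, MRPL40, MRPL49, MRPL51, MRPL52, MRPL53 and MRPL54. MRPL33 (-0.71 ± 0.17) and MRPL48 (-0.25 ± 0.090) were lower at 12 h. The MRPL48 call was lost in 18 of 24 fits without 1 library, and the MRPL33 call without sgCNOT3 replicate 1 at 12 h (-0.47, adjusted p = 0.060). Of the 36 calls, 28 were kept in all 24 such fits. The 8 that were not were those of MRPL2, MRPL19, MRPL20, MRPL21, MRPL23, MRPL28, MRPL30 and MRPL53. Each was lost without 1 or more of the 12 h libraries, and those of MRPL20 and MRPL23 also without libraries of other times. Their largest adjusted p ran from 0.055 (MRPL53) to 0.32 (MRPL23).

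The 7 mRNAs lower in sgCNOT3 at 0 h were MRPL1, MRPL13, MRPL17, MRPL18, MRPL21, MRPL34 and MRPL50, and all but MRPL1 were slower. The calls of MRPL13, MRPL17 and MRPL18 were kept in all 24 fits without 1 library. The other 4 were lost when a 0 h library was left out, any of the 4 for MRPL1, MRPL21 and MRPL34, and for MRPL50 any but sgCNOT3 replicate 2. The differences then ran from -0.87 to -0.63 for MRPL1, from -0.51 to -0.34 for MRPL21, from -0.52 to -0.46 for MRPL34 and from -0.76 to -0.47 for MRPL50. MRPL18, which in bacteria carries the 5S rRNA, had 56.3% and 52.7% after 0 h in sgNT and 33.2% and 34.5% in sgCNOT3, and at 12 h 10.1% and 8.55% against 18.9% and 19.5%. Its groups were apart in opposite directions at the start and the end of the chase. MRPL13 was low in sgCNOT3 throughout, with 41.5% and 43.4% against 23.1% and 25.5% after 0 h and 10.6% and 11.6% against 9.61% and 10.1% after 12 h. It was called slower (0.044 ± 0.015) although both sgCNOT3 libraries were below both sgNT libraries at 12 h.

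MRPL23, MRPL53 and MRPL55 were higher in sgCNOT3 at 0 h, by 2.06, 0.71 and 0.83 log2. None of these 3 calls was kept in all fits without 1 library. Without 1 library the differences ran from 1.73 to 2.40 for MRPL23, from 0.46 to 0.96 for MRPL53 and from 0.69 to 0.97 for MRPL55. MRPL23 and MRPL53 lost the call without sgNT replicate 2 or either sgCNOT3 library at 0 h, and MRPL55 lost it in 20 of 24 fits. MRPL55 had 17.7% and 14.7% in sgNT and 26.3% and 31.9% in sgCNOT3 at 0 h, and 5.11% and 5.09% against 16.1% and 16.2% after 12 h, so its groups were apart at both ends.

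Half-lives were fitted for each genotype as a single exponential from the 0 h mean, with 24 h as the upper limit, and are given with no test. Fits were kept for 46 mRNAs, those of MRPL17, MRPL23 and MRPL52 being left out. The median half-life was 8.94 h in sgNT (range 3.92 h to the limit) and 16.9 h in sgCNOT3 (5.60 h to the limit). The median log2 ratio was 0.74 for the 46 mRNAs and 0.19 for the 7728 genes with kept fits. It was above 0 for 33 and below 0 for MRPL12, MRPL33, MRPL48 and MRPL49, and at least 1 for 15. Another 9 were at the limit in both genotypes, and 8 reached it in sgCNOT3 alone, so their ratios depend on that limit. For MRPL58, MRPL18 and MRPL11 of these 8, a fit with a free starting value, added after seeing the data, gave 6.05 and 16.7 h, 6.17 and 21.1 h, and 22.4 and 24 h. All 27 slower mRNAs, counting MRPL17 although its fit was left out, had a ratio above 0 when the replicate numbers were fitted apart. The 27 were called from these same libraries, so this is not independent evidence. With each library scaled to the sgNT median of its time, the median ratio fell to 0.22, beside -0.12 for all genes.

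**Figure D4:**
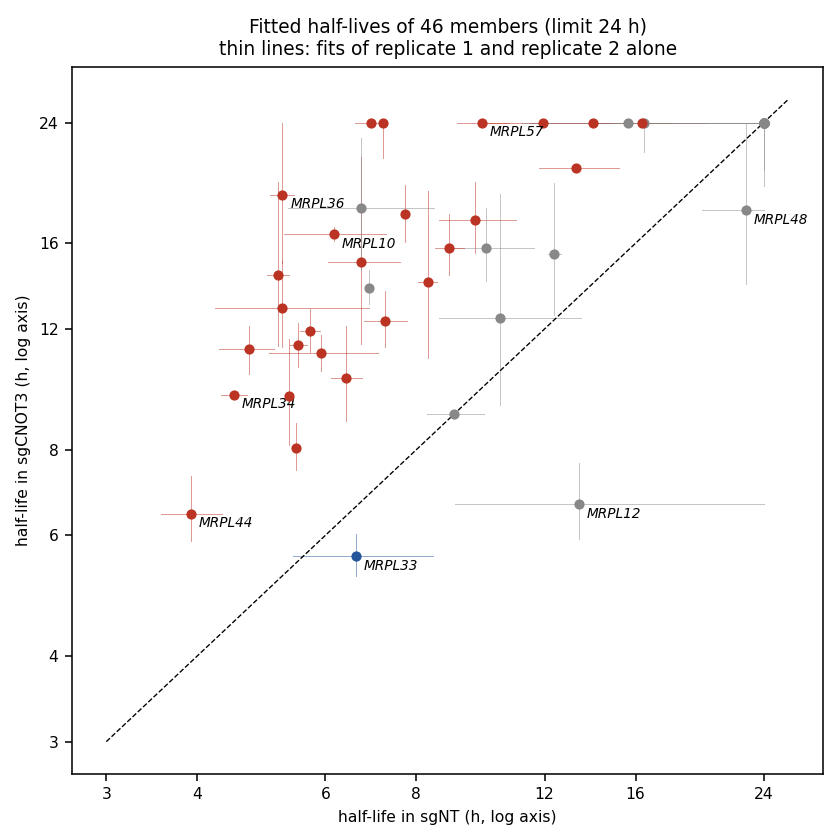
Half-life in sgCNOT3 against half-life in sgNT (h, both axes log) for the 46 mRNAs with kept fits, with thin lines joining the fits of replicate 1 and replicate 2 alone and a dashed line of equality. Red points are slower mRNAs, blue is MRPL33 and grey did not pass, with 33 above the line, 4 below it and 9 at the limit of 24 h on both axes.

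The coding sequences were rich in the arginine codons the study follows. CGG, CGA and AGG made up a median 4.82% of codons in the 49 mRNAs (range 0% to 10.2%) and 2.85% over the 10478 tested genes with a coding sequence. Of the 49, 41 were above that median and 32 were among the genes past the upper quartile. MRPL55 had the highest share, 10.2%, followed by MRPL23 with 9.80%, MRPL20 with 9.40% and MRPL18 with 8.33%. MRPL30 had 0% and MRPL3 1.44%.

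Within the 49 the share did not order the slope differences. Over the 49 mRNAs, Pearson's r of the share with the slope difference was 0.047 and Spearman's rho 0.056, and over the 46 kept fits r with the log2 half-life ratio was 0.18 and rho 0.13. With the difference at 12 h, r was 0.28 and rho 0.37, and the share of codons with G or C in the last position had r of 0.30 and rho of 0.36 with that same difference. The share of CGC, AGA and CGU had r of 0.19 (rho 0.26) with the slope difference. With the log2 half-life ratio its r was 0.20 (rho 0.18), and with the difference at 12 h 0.13 (rho 0.12). These are part of the 12 relations computed, and all points share the same 24 libraries. Across all 10478 genes r with the slope difference was 0.12 for the share of CGG, CGA and AGG and 0.060 for that of CGC, AGA and CGU. The median share of CGG, CGA and AGG was 4.79% in the 27 slower mRNAs and 5.22% in the other 22. MRPL55, whose stretch of 40 codons with 6 such codons is printed above, was slower (0.067 ± 0.021), and MRPL23, with 5 in its stretch, was not. MRPL30 had 40.03% and 41.7% after 0 h and 27.3% and 26.4% after 12 h in sgNT, and 41.98% and 40.3%, then 29.8% and 32.5% in sgCNOT3. Its slope difference was 0.011 ± 0.011. MRPL3 had 0.012 ± 0.016.

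**Figure D5:**
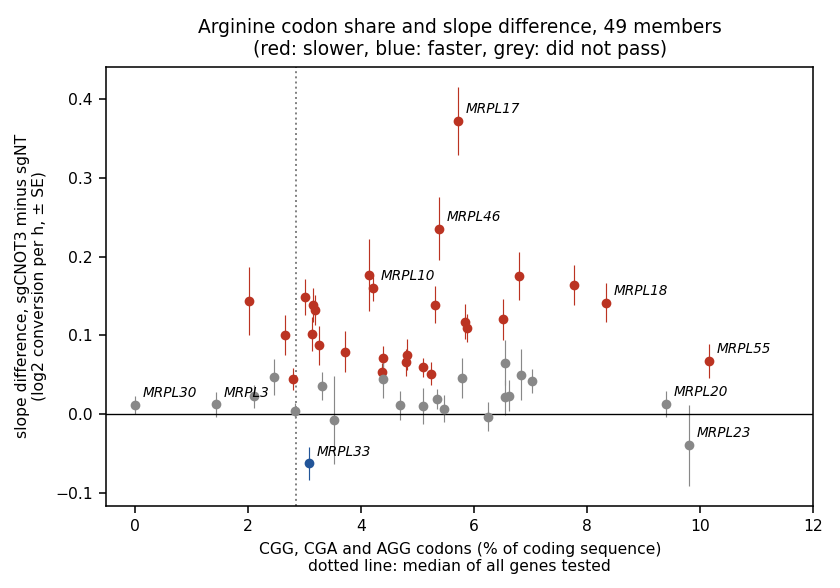
Slope difference (log2 conversion per h, sgCNOT3 minus sgNT, with standard error) against the share of CGG, CGA and AGG codons in the coding sequence (%) for the 49 mRNAs. The dotted line is the median of all tested genes, 2.85%, with 41 of the 49 to its right, and slower mRNAs (red) are spread from 2.03% to 10.2%.

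The 3 large-subunit proteins outside the symbol pattern were GADD45GIP1, MRPS30 and MRPS18A, and 2 of them were slower. GADD45GIP1 had a slope difference of 0.063 ± 0.020 and MRPS30 of 0.19 ± 0.044, and MRPS18A had 0.083 ± 0.037 (adjusted p = 0.11). Of 18 assembly factors of the subunit, 11 were slower (61.1%, beside 21.7% of all genes tested) and 0 faster, with a median of 0.12. Among these, the 16S rRNA methyltransferases MRM1, MRM2 and MRM3 had 0.42 ± 0.089, 0.24 ± 0.031 and 0.33 ± 0.052. The half-life fits of these 3 were left out. MRM1 was at 0 in both sgNT libraries after 12 h, following 2.74% and 17.0% after 8 h, so its slope depends on the pseudocount. MRM3 was at 2.43% and 0.787% in sgNT after 12 h. The conversion of MRM2 in sgNT was 40.3% and 32.9% after 0 h and 2.03% and 2.65% after 12 h, and in sgCNOT3 21.4% and 19.3%, then 9.08% and 10.5%. Of 30 small-subunit mRNAs, 17 were slower (56.7%) and 0 faster, with a median slope difference of 0.059 and a median log2 half-life ratio of 0.63. The large-subunit mRNAs were not set apart from the small-subunit ones by any test.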

How the data were processed

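T-to-C conversions of 24 SLAM-seq libraries were analysed, in groups taken from the sample titles. The deposited table gives conversion as a fraction, 1 value for each gene in each library, and it is shown here in percent. It was made from 3' end libraries aligned to GRCh38. The submitters' processing notes name bcl2fastq, while no aligner, conversion caller or annotation is given in the sources used here. The table holds no counts, so depth is unknown and no counting interval is given. Of the 49 members, 9 have exons that overlap another gene on the same strand in GENCODE 44, and how reads were assigned there, or between genes and near-identical pseudogenes, is unknown.

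Slopes came from limma 3.58.1 (R 4.3.3). The response was log2(conversion + 0.34 percentage points), a pseudocount of 1% of the median at 0 h, with genotype, chase time and their interaction. Fold differences on this scale are understated near 0. Two-sided moderated tests with the trend option were adjusted over 10731 genes by Benjamini-Hochberg. Contrasts at each time came from a model of 12 group means. Half-life fits with a residual SE above 0.3 in either genotype were left out. Codon shares came from the MANE Select coding sequence of each member. Scripts were tested on simulated data. Python 3.11.15, numpy 2.4.6, pandas 2.3.3 and matplotlib 3.10.9 were used.

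Members and lists were chosen with earlier results of these data known. The groups by place in the subunit come from general knowledge. Values in all libraries are given for the 6 slower members with the highest moderated t, the faster one, the 2 lowest that did not pass, the 5 with qRT-PCR primers in the study, and the 2 shortest and 2 longest kept half-lives in sgNT. Sequences are those of the 2 highest and 2 lowest codon shares. Alternatives were another pseudocount, another filter, centred libraries, a subtracted floor, the replicate block, no trend, fewer times and omitted libraries.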

Additional observations from a re-analysis of the deposited data

Results flagged for a closer look

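For 5 of the 49 mRNAs conversion in sgCNOT3 was lower than in sgNT at 0 h and higher at 12 h, each past the threshold in limma. Of all genes tested, 4.09% were lower at 0 h and 31.8% were higher at 12 h. The share of all genes meeting both conditions was not computed, so whether 5 is unusual is unknown. The change between the 2 times was tested as a difference of the contrasts and also passed. That change, in log2, was 4.50 for MRPL17, 1.70 for MRPL18, 1.38 for MRPL50, 1.35 for MRPL34 and 0.77 for MRPL21. What was looked for here, opposite signs at the start and the end of the chase, was chosen after seeing the data. The 5 were picked because both contrasts passed with opposite signs, so a pass of their difference was close to fixed in advance. It is not further support. Of these 5, the lower value at 0 h kept its call without any 1 library for MRPL17 and MRPL18, and not for MRPL21, MRPL34 and MRPL50. With libraries centred at their medians over genes, 0 of the 49 mRNAs were lower at 0 h. Among all genes tested, 439 were lower at 0 h in the main fit and 100 with libraries centred. The 0 h medians over genes were close between genotypes, 35.9% and 32.0% in sgNT and 35.9% and 32.7% in sgCNOT3. Why the calls at 0 h were lost was not tested.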

How the results depend on the processing

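The count of slower mRNAs, 27, was 25 with a pseudocount of 10% of the median and 28 with 0.1%, 27 with no filter beyond 0 h, 27 with the trend off, 21 with a floor of 1.56 percentage points taken off sgCNOT3, 17 over 0 to 8 h, 3 over 0 to 4 h (added after seeing the data) and 7 with libraries centred. It ranged from 6 to 28 when 1 library or 1 replicate number was left out (here, without replicates), the lowest values being 6 without replicate 1 and 8 without replicate 2 at all times, which leave 1 library per group. The count of faster mRNAs was 0 with the 10% pseudocount, 0 over 0 to 8 h and 0 over 0 to 4 h, 3 with libraries centred, and 0 to 1 without replicates. At 12 h, 8 mRNAs were higher and 7 lower with libraries centred, 30 to 37 were higher without replicates, and 0 to 2 were lower without replicates. Of those lower at 12 h, 1 was left with the 10% pseudocount, with no filter, with the trend off and with the replicate block. At 0 h, 0 were lower and 0 higher with libraries centred, 1 was higher with the floor subtracted, and 3 to 8 were lower and 0 to 3 higher without replicates. The median slope difference was 0.047 with the 10% pseudocount, 0.036 over 0 to 4 h and -0.0066 with libraries centred, and 0.048 to 0.067 without replicates. For all genes tested it was 0.036 with the 10% pseudocount and -0.037 over 0 to 4 h. With the floor subtracted it was 0.058 for the mRNAs and 0.036 for all genes, and over 0 to 8 h 0.054 and 0.044. The mRNAs were below all genes with the 0.1% pseudocount (0.060 against 0.064) and with no filter (0.059 against 0.060). Without replicates both orders occurred. For half-lives the median log2 ratio came to 0.22 with libraries scaled to sgNT medians and to 0.63 to 0.86 without replicates. Among all genes tested the share called slower also fell, from 21.7% in the main fit to 5.46% with libraries centred. That share was lower than in the main fit with the floor subtracted, over 0 to 8 h and over 0 to 4 h too. The causes of these changes were not tested, beyond the shift of 0.066 per h that centring takes off every slope difference.

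Replicate numbers were not used to pair the samples in the main fit. Deviations of same-numbered libraries correlated at -0.055 to 0.22 over 66 pairs of groups, with 2 over 0.1, and none of the 6 pairs at the same time was over 0.1. The 2 were sgCNOT3 at 2 h with sgCNOT3 at 4 h (0.22) and at 8 h (0.12). Low correlations cannot show whether a replicate number marks a guide or a culture, which the labels do not say. With the replicate block 28 mRNAs were slower and 1 was faster, and all 27 slower mRNAs kept their call.

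With libraries centred, 23 slope differences changed sign: MRPL1 -0.018, MRPL2 -0.00032, MRPL3 -0.054, MRPL9 -0.015, MRPL11 -0.055, MRPL13 -0.021, MRPL19 -0.00012, MRPL20 -0.053, MRPL22 -0.013, MRPL24 -0.0066, MRPL28 -0.059, MRPL30 -0.055, MRPL37 -0.030, MRPL38 -0.016, MRPL40 -0.047, MRPL41 -0.056, MRPL42 -0.043, MRPL47 -0.021, MRPL48 -0.062, MRPL49 -0.043, MRPL51 -0.024, MRPL52 -0.045 and MRPL54 -0.020. Over 0 to 4 h, 12 did: MRPL9 -0.0099, MRPL11 -0.024, MRPL19 -0.032, MRPL20 -0.043, MRPL30 -0.018, MRPL42 -0.045, MRPL43 -0.032, MRPL45 -0.024, MRPL48 -0.057, MRPL49 -0.040, MRPL51 -0.0049 and MRPL52 -0.035. Over 0 to 8 h MRPL20 was at -0.017 and MRPL28 at -0.0087. Without replicates the slope difference ranged across 0 for 8 mRNAs, none of them called, from -0.00018 to 0.021 for MRPL11, -0.061 to 0.031 for MRPL12, -0.0021 to 0.025 for MRPL20, -0.092 to 0.012 for MRPL23, -0.0031 to 0.017 for MRPL28, -0.035 to 0.056 for MRPL41, -0.0079 to 0.016 for MRPL48 and -0.022 to 0.015 for MRPL53.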
